A study of Mus musculus with 8 samples.

Results

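The 10 genes described here are the glutathione S-transferases Gstm1, Gstm2, Gstm3, Gstm4, Gstm5, Gstm6 and Gstm7 of the mu class, Gsta3 and Gsta4 of the alpha class, and Gstp1 of the pi class, out of 55487 gene identifiers in the deposited tables. They were chosen by symbol, and the family was proposed because Gstm6 was the single gene called lower in AKO fat. The measured values behind that choice are the AKO against WT values of Gstm6, so the same contrast is given for the members as a description and not as a test. RNA was sequenced from epididymal white adipose tissue (eWAT, the visceral fat pad beside the epididymis) of 8 male C57BL/6 mice made obese on a high-fat diet, each library from a separate mouse. The 4 AKO mice (numbers 3, 8, 9 and 11) carried AP2-Cre, a recombinase transgene under the promoter of the fat cell gene Fabp4, together with floxed Slc16a1, and their genotype field reads Slc16a1 -/-. The 4 WT mice (numbers 2, 3, 4 and 5) carried the same Slc16a1 flox/flox alleles without Cre, so floxed Slc16a1 and obesity are common to all 8 mice, and Cre and the deletion go together. The ages of the mice are not given in the labels. Slc16a1 encodes MCT1, a carrier of lactate, pyruvate and ketone bodies, and the design asks how the fat of obese mice differs with its intended loss.

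Glutathione S-transferases join the tripeptide glutathione to electrophiles, among them the reactive aldehydes that form when membrane and storage lipids are oxidised. The conjugates leave the cell through ABCC transporters, and glutathione is remade by its own synthesis and reduction enzymes. Many alpha and mu class genes of mouse liver are targets of NRF2, a transcription factor that binds the antioxidant response element together with a small MAF protein. In mouse fat, GSTA4 is known as an enzyme that clears the lipid aldehyde hydroxynonenal. GSTP1 is also known as a binding partner of the stress kinase JNK.

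RefSeq promoter windows (250 bases before to 50 bases after a start, build GRCm38.p6) were matched by symbol for 9 of the 10 members, with 14 windows in all, since Gstm6 has 3 and some others have 2. Printed here are the first window of Gstm6, the member with the largest difference between the groups, and the 3 windows that hold the antioxidant response element core TGACNNNGC, each 5′ to 3′ on the strand of the gene and with the core in capitals. They lie at chr3:107953417-107953716 (minus strand) for Gstm6, chr3:107895604-107895903 (plus strand) for Gstm5, chr3:107931565-107931864 (minus strand) for Gstm7, and chr1:21240335-21240634 (plus strand) for Gsta3.
Gstm6 promoter, window 1: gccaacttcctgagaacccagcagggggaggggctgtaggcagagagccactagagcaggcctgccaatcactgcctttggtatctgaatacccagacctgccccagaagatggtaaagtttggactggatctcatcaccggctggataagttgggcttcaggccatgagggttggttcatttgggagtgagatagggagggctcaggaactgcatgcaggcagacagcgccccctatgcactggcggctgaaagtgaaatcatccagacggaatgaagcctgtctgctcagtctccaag
Gstm5 promoter: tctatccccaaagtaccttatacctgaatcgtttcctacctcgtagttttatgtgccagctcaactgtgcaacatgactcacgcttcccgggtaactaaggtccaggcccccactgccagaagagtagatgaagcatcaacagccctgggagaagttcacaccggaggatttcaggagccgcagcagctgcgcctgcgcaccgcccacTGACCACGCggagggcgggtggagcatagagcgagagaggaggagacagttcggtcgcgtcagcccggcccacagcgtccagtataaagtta
Gstm7 promoter, window 2: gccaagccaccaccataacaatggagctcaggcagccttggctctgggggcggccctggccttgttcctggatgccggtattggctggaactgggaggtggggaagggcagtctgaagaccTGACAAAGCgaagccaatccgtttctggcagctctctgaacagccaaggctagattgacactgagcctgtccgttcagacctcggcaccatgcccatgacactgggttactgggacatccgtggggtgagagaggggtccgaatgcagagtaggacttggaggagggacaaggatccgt
Gsta3 promoter: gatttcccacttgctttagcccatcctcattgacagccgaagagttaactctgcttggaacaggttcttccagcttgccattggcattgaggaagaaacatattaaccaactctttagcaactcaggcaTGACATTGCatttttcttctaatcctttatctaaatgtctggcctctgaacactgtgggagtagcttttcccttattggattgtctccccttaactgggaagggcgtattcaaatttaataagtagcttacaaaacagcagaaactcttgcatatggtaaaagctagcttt

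The core was searched on both strands and was present in 3 of the 14 member windows, against 12.4% of all 32851 windows in the table. None of the 3 Gstm6 windows held these letters, and neither did those of Gstm1, Gstm2, Gstm3, Gstm4 and Gstp1. Other forms of the element were not searched, so a window without these letters can hold one. Gsta4 had no window. The canonical direct repeat DR1, the element bound by PPAR with RXR, was in 0 of the 14 member windows and in 0.0396% of all windows.

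Values are TPM, a level per transcript length that is scaled to the same total in every library and keeps no read depth, so levels can be compared between genes but carry no counting interval. Between 13968 and 14884 genes per library reached 1 TPM. The number of transcript rows above 0 did not overlap between the groups, with 66238 to 70374 in AKO and 62802 to 66112 in WT, and its part in the results was not tested. Summed Slc16a1 did not separate the groups, with 22.4, 21.5, 27.1 and 25.03 TPM in AKO mice 3, 8, 9 and 11, against 23.4, 28.5, 15.7 and 17.7 TPM in WT mice 2, 3, 4 and 5 (log2 difference 0.19, 95% interval -0.21 to 0.60). One of its 2 rows was 4.51 to 8.80 TPM in AKO and 10.8 to 17.7 TPM in WT, while the other is listed at 0 in WT mice 4 and 5; AKO and WT are therefore used as the labels give them. Fat was present as labelled: all 11 adipocyte markers (such as Adipoq and Plin1) passed the filter, with a summed 30121 to 41587 TPM in AKO and 28963 to 43145 TPM in WT. Of 10 markers of epididymal epithelium none passed, Lcn8, Lcn9 and Spag11b are listed at 0 in all 8 libraries, and their sum was 0.3 to 8.94 TPM in AKO and 0.23 to 7.87 TPM in WT.

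**Figure D1:**
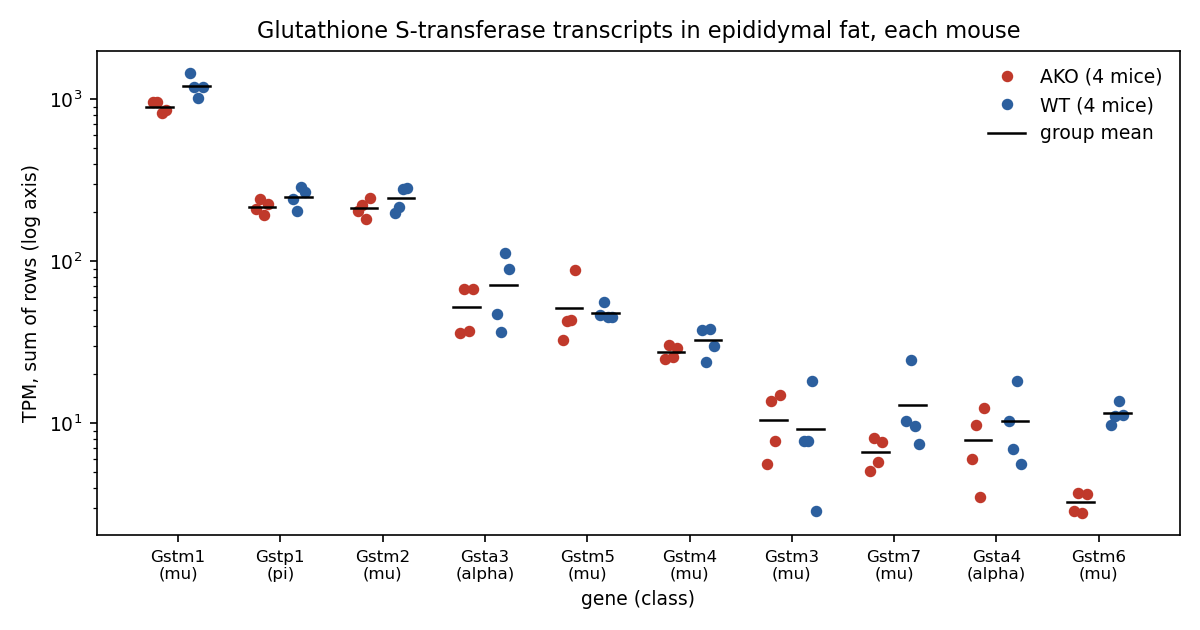
Level of each of the 10 glutathione S-transferase genes in TPM (log axis), with 1 point per mouse, AKO in red and WT in blue, and a line at the group mean. Genes run from the highest mean over all 8 mice (Gstm1) to the lowest (Gstm6, which in WT alone lies above Gstm3 and Gsta4). The AKO and WT points are apart for Gstm6 and, by a smaller margin, for Gstm1.

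The members spanned more than 2 orders of magnitude. Over all 8 mice Gstm1 averaged 1057 TPM, Gstp1 233 TPM and Gstm2 229 TPM. Next came Gsta3 at 61.6 TPM, Gstm5 at 49.9 TPM and Gstm4 at 30.0 TPM. The last 4 lay close together, with Gstm3 at 9.84 TPM, Gstm7 at 9.78 TPM, Gsta4 at 9.09 TPM and Gstm6 at 7.36 TPM. The last place of Gstm6 comes from the AKO mice: in WT its mean of 11.5 TPM was above those of Gstm3 (9.18 TPM) and Gsta4 (10.3 TPM). In this order the ranges over the 8 mice were apart between Gstm1 and Gstp1, between Gstm2 and Gsta3 and between Gstm4 and Gstm3, and they overlapped between all other neighbours. Gstm1 alone made up 55.4 to 64.5% of the summed TPM of the 10 members in AKO and 55.4 to 70.5% in WT. Relative spread was smallest for Gstp1 (coefficient of variation 14.0% over the 8 mice) and largest for Gstm7 (63.3%). The 61.8% of Gstm6 spans 2 groups that do not overlap, and within them its SD was 0.486 TPM around 3.24 TPM in AKO and 1.66 TPM around 11.5 TPM in WT.

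Gstm6 (ENSMUSG00000068762, chromosome 3), a mu class member, was lower in AKO fat. It had 2.85, 3.68, 2.79 and 3.64 TPM in AKO mice 3, 8, 9 and 11, against 9.78, 11.07, 13.8 and 11.3 TPM in WT mice 2, 3, 4 and 5. Every AKO mouse lay below every WT mouse, and the highest AKO value was less than the lowest WT value by a wide gap. The means were 3.24 ± 0.486 TPM in AKO and 11.5 ± 1.66 TPM in WT (SD, n = 4 each), so that AKO stood at 28.2% of WT. On the log2(TPM + 1) scale, which understates the change of low genes, the difference was -1.55 (95% interval -1.85 to -1.26). Its limma FDR over all 14172 genes tested was 0.00824, the value from which the family was proposed. Without AKO mouse 3 the FDR was 0.0595, past the threshold of 0.05, at a difference of -1.51. In bulk tissue, fewer cells of a type and less RNA per cell cannot be told apart, here and for all values that follow.

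Gstm6 was also a smaller part of its class in AKO fat. It made up 0.230, 0.288, 0.256 and 0.292% of summed mu class TPM in AKO mice 3, 8, 9 and 11, against 0.554, 0.728, 0.966 and 0.718% in WT mice 2, 3, 4 and 5. Set against the mean of the 6 other mu genes on the log2 scale, Gstm6 lay between -3.82 and -3.50 in AKO and between -2.51 and -2.03 in WT. Both measures were apart between the groups, and both use the Gstm6 values that chose the family.

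Gstm1 (ENSMUSG00000058135, chromosome 3), the most abundant member and a broad mu class conjugating enzyme, was the other gene whose groups did not overlap. It had 960.1, 958, 824 and 861 TPM in AKO mice 3, 8, 9 and 11, against 1456, 1182, 1019.5 and 1192 TPM in WT mice 2, 3, 4 and 5. All 4 AKO mice were below the lowest WT mouse, mouse 4, though AKO mouse 3 came close to it. AKO averaged 901 ± 69.0 TPM and WT 1212.5 ± 181 TPM (SD, n = 4 each), a log2 difference of -0.42 (95% interval -0.69 to -0.15) that did not pass over all genes (limma FDR 0.831). In TPM, the difference between the Gstm1 means was larger than the whole level of Gstm6.

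Gstm7 (ENSMUSG00000004035), a mu class gene next to Gstm6, had 5.05, 8.13, 5.73 and 7.63 TPM in AKO, in the same mouse order as above, against 10.3, 24.5, 9.54 and 7.40 TPM in WT. The groups overlapped through WT mouse 5, and WT mouse 3 was far above all others. The log2 difference was -0.75 (95% interval -1.48 to -0.0096; FDR 0.831), and -0.41 without WT mouse 3. Gstm2 (ENSMUSG00000040562) had 205, 222, 183 and 244 TPM in AKO, against 198, 215, 279 and 283 TPM in WT, and Gstm4 (ENSMUSG00000027890) had 24.9, 30.5, 25.5 and 29.1 TPM in AKO, against 37.5, 23.9, 38.3 and 29.9 TPM in WT. In both genes the groups overlapped, and the lowest Gstm4 value was that of WT mouse 3, with log2 differences of -0.18 (-0.51 to 0.15) for Gstm2 and -0.21 (-0.56 to 0.14) for Gstm4.

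Gstm3 and Gstm5 had no lower mean in AKO. Gstm3 (ENSMUSG00000004038) had 5.62, 13.8, 7.76 and 14.9 TPM in AKO, against 7.81, 7.73, 18.3 and 2.87 TPM in WT, with a log2 difference of 0.31 (95% interval -0.77 to 1.40). WT mice held both the lowest and the highest Gstm3 value. Gstm5 (ENSMUSG00000004032), which is best known from brain and testis, had 32.8, 42.6, 43.04 and 88.2 TPM in AKO, against 46.5, 55.7, 44.9 and 45.5 TPM in WT. AKO mouse 11 alone was above every WT mouse while the other 3 AKO mice were below every WT mouse, and the log2 difference was 0.0018 (-0.60 to 0.61). The sign of both genes turned when single mice were left out.

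The alpha class varied more between mice than between groups. Gsta3 (ENSMUSG00000025934), a detoxifying enzyme known in mouse liver for conjugating the aflatoxin epoxide, had 36.04, 67.3, 37.1 and 67.6 TPM in AKO, against 47.3, 36.5, 112.3 and 89.1 TPM in WT. Gsta4 (ENSMUSG00000032348), the hydroxynonenal conjugating enzyme, had 6.00, 9.71, 3.49 and 12.4 TPM in AKO, against 10.4, 6.90, 18.2 and 5.60 TPM in WT. In both genes the groups overlapped broadly and WT mouse 4 was highest. Their log2 differences were -0.37 (-1.24 to 0.50) for Gsta3 and -0.33 (-1.28 to 0.61) for Gsta4, and -0.11 and -0.04 without WT mouse 4. Gstp1 (ENSMUSG00000060803), the pi class member, had 209, 243, 192 and 225 TPM in AKO, against 241, 203, 288 and 266 TPM in WT, a log2 difference of -0.19 (-0.47 to 0.09). WT mice 2 and 3 lay within the AKO range.

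All 10 members passed the filter of at least 1 TPM in at least 4 libraries. At an FDR of 0.05, 1 of the 10 was lower in AKO and 0 were higher, where 0.0282% of all 14172 genes passed, 0.00706% lower and 0.0212% higher. Groups without overlap were found for 2 members with AKO below WT, against 1.33% of all genes, and for 0 members with AKO above WT, against 1.11%. The log2 difference was below 0 for 8 of the 10 members and for 46.2% of all genes, and the median was -0.27 over the members and 0.015 over all genes. Nothing is read from these shares, because the contrast chose the family.

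**Figure D2:**
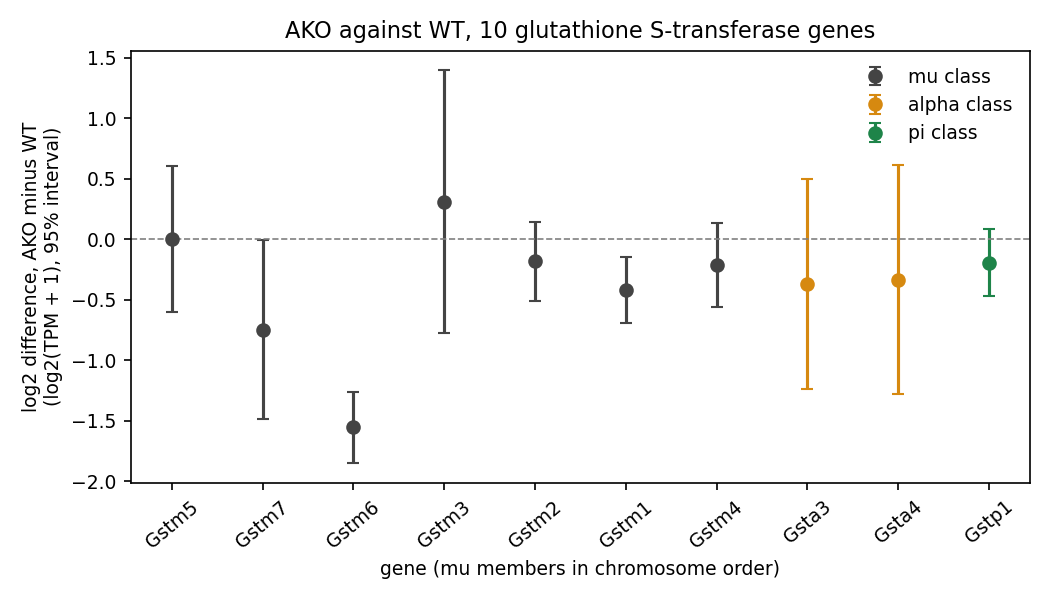
Difference of each member on the log2(TPM + 1) scale, AKO minus WT, with 95% intervals from the fit over all genes, the mu genes in the order in which they lie on chromosome 3. Intervals of Gstm6, Gstm1 and Gstm7 lie below 0, that of Gstm7 only just (its difference is -0.41 without WT mouse 3), and those of the other 7 members include 0.

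Summed over the class, mu transcripts were 1237, 1279, 1092 and 1248 TPM in AKO mice 3, 8, 9 and 11, against 1766, 1520, 1424 and 1573 TPM in WT mice 2, 3, 4 and 5. The groups were apart, with AKO at 77.3% of the WT mean. Without Gstm1 the mu sum was 313 ± 54.9 TPM in AKO and 358 ± 42.2 TPM in WT (SD, n = 4 each), and the groups overlapped. The alpha sum was 42.04, 77.0, 40.6 and 79.98 TPM in AKO, against 57.7, 43.4, 130.5 and 94.7 TPM in WT, with overlap. All 10 members together had 1491 ± 120.3 TPM in AKO and 1902 ± 128 TPM in WT (SD, n = 4 each), again apart. The ratio of Gstm1 to Gstm6 TPM ran from 236 to 337 in AKO and from 74.1 to 149 in WT, without overlap. This ratio uses the Gstm6 values that chose the family, so nothing is read from its separation.

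The tables hold 52 transcript rows for the 10 members, of which 6 are at 0 in all 8 libraries and 26 passed the filter. The tables do not say which transcript a row stands for, so rows are numbered by their order under the gene. Of the 26, 3 had AKO below WT without overlap, against 1.45% of all 33323 rows tested, and 0 had AKO above WT, against 1.59%. One, row 5 of Gstm6, was called at an FDR of 0.05 and was lower in AKO, where 0.021% of all rows passed (0.006% lower and 0.015% higher). Nothing is read from these row shares either, because the same contrast chose the family. Row 5 held 82.4 to 99.2% of Gstm6 and had 2.49, 3.45, 2.59 and 3.58 TPM in AKO, against 9.70, 9.12, 13.5 and 10.5 TPM in WT. Its log2 difference was -1.54 (95% interval -1.90 to -1.17; FDR 0.0481), and the call was lost in 11 of 12 alternatives, among them each of the 8 that leave out a mouse, with an FDR of up to 0.257. The Gstm6 difference therefore sat in its main row.

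Row 3 of Gstm1 had 1.64, 1.44, 0.97 and 0.88 TPM in AKO, against 2.96, 3.26, 1.92 and 2.68 TPM in WT (log2 difference -0.73, 95% interval -1.16 to -0.30). It is a minor row: row 5, with 68.4 to 75.6% of Gstm1 in AKO and 66.3 to 81.8% in WT, had 726, 717, 563 and 631 TPM in AKO, against 1191.5, 922, 676 and 934 TPM in WT, and its groups overlapped through WT mouse 4. Gstm1 is thus apart as a sum but not in its main row. Row 1 of Gstm7 had 2.57, 3.58, 3.77 and 4.23 TPM in AKO, against 7.04, 11.3, 6.77 and 4.33 TPM in WT (log2 difference -0.83, 95% interval -1.40 to -0.26). AKO mouse 11 and WT mouse 5 nearly met there.

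Members that resemble each other in sequence can exchange reads in counting. Coding sequences of the mu genes were 66.1 to 89.5% identical in 21 pairs, highest between Gstm1 and Gstm3, and 45.6 to 51.2% identical to the alpha and pi members. Of the 50-base words of the longest coding transcript, Gstm6 shared 11.5% with any other gene, most of them with Gstm3 (6.73%) and the pseudogene Gm12494 (4.78%, listed at 0 in all 8 libraries). Gstm3 itself differed by 0.31 on the log2 scale, with an interval that includes 0. Gstm1 shared 23.1% of its words, chiefly with the pseudogene Gstm2-ps1 (17.3%, listed at 0 in all 8 libraries) and with Gstm3 (10%). Gstm3 shared 28.8% of its words, among them 9.83% with the far more abundant Gstm1. The part of this sharing in the Gstm3 values was not tested. Gstm4, Gstm7, Gsta3 and Gsta4 shared none. For Gstm5 the shared 14.4% lay with 4933431E20Rik, and without a stated strand the reads of these genes cannot be told apart; that gene had 2.09 to 4.18 TPM in AKO and 2.54 to 3.94 TPM in WT.

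The closest case was Gstp1, which shared 62.3% of its words with its neighbour copy Gstp2, at 98.1% identity of the coding sequences. Row 11 of Gstp1 had 18.5, 16.6, 0 and 0 TPM in AKO mice 3, 8, 9 and 11, against 21.8, 2.77, 21.04 and 2.53 TPM in WT mice 2, 3, 4 and 5. Gstp2 had 0, 0, 20.1 and 16.5 TPM in AKO, against 0, 19.5, 0 and 22.1 TPM in WT. Where one was high the other was low or listed at 0, in every mouse. Their sum varied less between mice of a group, at 18.5, 16.6, 20.1 and 16.5 TPM in AKO, against 21.8, 22.2, 21.04 and 24.7 TPM in WT, with every AKO mouse below every WT mouse. Gstp1 and Gstp2 together were 209 to 243 TPM in AKO and 223 to 288 TPM in WT. Values of Gstp2 alone, and of this Gstp1 row, are accordingly uncertain in each library. A second pair of rows also went together: row 6 of Gstm5 and row 4 of Gstm7 are both listed at 0 in AKO mice 3 and 11 and in WT mouse 4, and both were highest in WT mouse 3, at 16.1 and 7.21 TPM. Without that row, Gstm7 was 4.27 to 7.63 TPM in AKO and 6.08 to 17.3 TPM in WT. Both row pairs were picked after their values were seen.

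**Figure D3:**
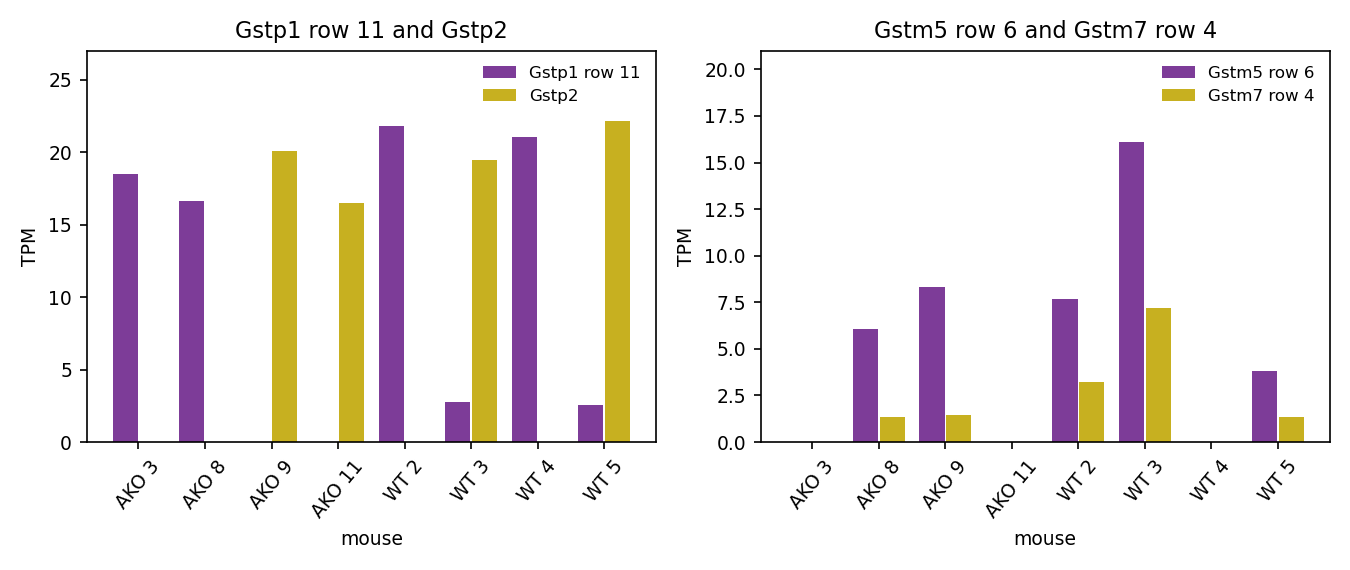
TPM of Gstp1 row 11 and of Gstp2 (left) and of Gstm5 row 6 and Gstm7 row 4 (right) in each of the 4 AKO and 4 WT mice; a missing bar is a value listed at 0. Gstp1 row 11 and Gstp2 replace each other from mouse to mouse, and the Gstm5 and Gstm7 rows are at 0 in the same 3 mice.

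The mu genes form a cluster on chromosome 3, the chromosome of Slc16a1. In the order of the GENCODE M21 annotation, going away from Slc16a1, they lie as Gstm5 on the plus strand and then Gstm7, Gstm6, Gstm3, Gstm2, Gstm1 and Gstm4 on the minus strand. Gstm6, with the largest difference, has Gstm7 on one side and Gstm3 on the other, with log2 differences of -0.75 and 0.31 and overlapping groups in both. Between Slc16a1 and Gstm5 the annotation lists 97 other genes, of which 27 were tested. Of these 27, 0 passed an FDR of 0.05 in limma and 0 had an unadjusted p below 0.05, where 4.75% of all genes did. The groups of none of the 27 were apart, where 1.33% of all genes had AKO below WT and 1.11% had AKO above WT. The median log2 difference of the 27 was 0.05. Inside the cluster lie 9 other annotated genes, all pseudogenes or noncoding, of which 0 passed the filter. With the protein-coding genes beyond both ends, 43 neighbours were tested. A positive difference was found for 29 and a negative difference for 14, where 46.2% of all genes had a difference below 0. The 43 neighbours held 0 called genes (0 at an unadjusted p below 0.05). Among those with the smallest p were Ppm1j, a protein phosphatase gene, with 3.33 ± 1.33 TPM in AKO and 1.93 ± 0.364 TPM in WT, Lrig2 with 5.64 ± 0.306 TPM in AKO and 4.61 ± 0.834 TPM in WT, and Rsbn1 with 6.31 ± 0.673 TPM in AKO and 5.36 ± 0.382 TPM in WT (SD, n = 4 each). These 3 had a higher mean in AKO and overlapping groups.

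**Figure D4:**
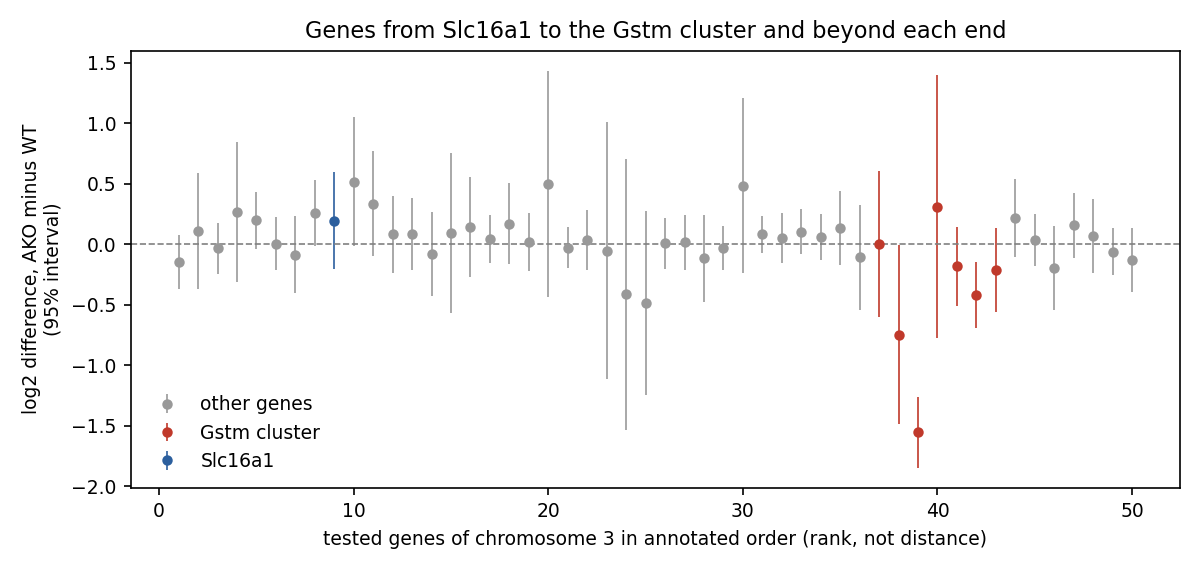
Difference of each tested gene on the log2(TPM + 1) scale, AKO minus WT, with 95% intervals, in annotated order along chromosome 3 from before Slc16a1 (blue) to beyond the Gstm cluster (red); the x axis is rank and not distance. Gstm6 at -1.55 is the lowest point, and the genes between Slc16a1 and the cluster lie between -0.49 and 0.52.

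Members varied together across mice in part. Over the 8 mice, Pearson's r on the log2 scale was positive in 38 of 45 pairs of members, a description of 8 libraries that share the TPM total and the cell mix of each pad. It was highest between Gsta3 and Gstp1 (0.92) and between Gstm2 and Gsta3 (0.90), and lowest between Gstm1 and Gstm3 (-0.37). Within the mu class the median r was 0.25. Between Gstm1 and Gstm6 it was 0.74, and the groups of both genes were apart, which enters this r.

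The pads differed in their adipocyte marker score (mean log2(TPM + 1) of 11 markers), which ran from 9.72 to 10.25 in AKO and from 9.74 to 10.6 in WT. AKO mouse 9, WT mouse 3 and AKO mouse 3 had the 3 lowest scores, and the same 3 mice had the 3 lowest values of Gsta3 (36.04 to 37.1 TPM), of Gstm4 (23.9 to 25.5 TPM) and of Gstp1 (192 to 209 TPM). In every other member, the 3 lowest values included a mouse other than these. WT mouse 3, for example, had the highest Gstm7 value of all mice (24.5 TPM). The 3 mice with the lowest adipocyte scores also had the 3 highest scores of 11 macrophage markers (7.78 to 8.02) and of 9 lipid-associated macrophage markers (8.42 to 8.75). Within each group Gstm6 was also highest in the mouse with the highest score, at 3.68 TPM in AKO mouse 8 and 13.8 TPM in WT mouse 4, and within AKO it had the same order as the score. Within WT it did not have that order: WT mouse 2 had the lowest value, 9.78 TPM, at a score of 10.29. The 3 mice with the lowest scores had 2.79 TPM (AKO mouse 9), 11.07 TPM (WT mouse 3) and 2.85 TPM (AKO mouse 3) of Gstm6. These are among the values that chose the family. Of the 11 adipocyte markers only 1 had a positive log2 difference, 0 were called, and the median was -0.18. The mean score was 9.99 in AKO and 10.23 in WT, with overlap. The part of fat cell content in the member values was not tested. For the macrophage list 10 of 11 markers had a higher mean in AKO, with scores of 7.26 to 8.02 in AKO and 6.61 to 7.80 in WT. All 9 lipid-associated markers also had a higher mean in AKO, with scores of 7.71 to 8.75 in AKO and 5.56 to 8.43 in WT. No marker of either list was called, both scores overlapped between the groups, and their part in the member values was not tested.

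**Figure D5:**
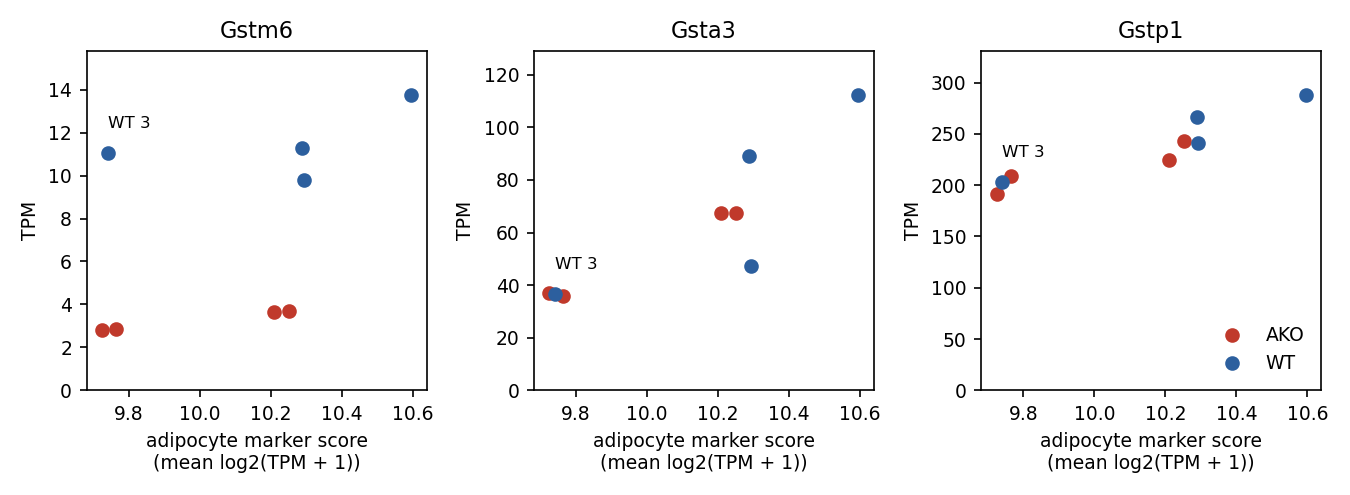
TPM of Gstm6, Gsta3 and Gstp1 against the adipocyte marker score (mean log2(TPM + 1) of 11 markers) in each mouse, AKO in red and WT in blue. Gsta3 and Gstp1 are low in the 3 mice with scores under 9.8 whatever their group. Gstm6, whose values chose the family, is lower in every AKO mouse than in every WT mouse. It rises with the score within AKO but does not follow its order within WT.

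The genes most like a member across the 8 mice were sought among 12675 genes by Pearson's r on the log2 scale. For Gstm6 they were Bicd2, a dynein adaptor gene (r 0.989, Spearman rank correlation 0.929), the pseudogene Gpx4-ps2 (0.959 and 0.881) and Afap1, an actin filament associated protein gene (0.952 and 0.952). The Gstm6 values form one cluster per group, so these r values are those of genes that also separate AKO from WT, on chromosomes 13, 10 and 5. Bicd2 had 34.4, 34.5, 34.4 and 35.3 TPM in AKO, against 41.3, 41.3, 44.5 and 43.3 TPM in WT, a smaller proportional difference than that of Gstm6. For Gstm1 the nearest were Frg2f1 (r 0.941), Mrps5, a mitochondrial ribosomal protein gene (0.936), and Tmem39a (0.934). Like Gstm1, each of these genes was lower in every AKO mouse than in every WT mouse, which enters r. For Gsta4 they were Nipsnap2 (0.962), the zinc finger gene Zkscan7 (0.959) and Chrnb1, an acetylcholine receptor subunit gene (0.954). Without the 2 mice farthest from the median of the member, r stayed between 0.859 and 0.986 for these 9 genes. Nothing is read from this, because the genes were picked for the highest r on the same mice. For Gstm6 and Gstm1, mice of both groups remain, and the gap between the groups still enters r.

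The rest of the glutathione pathway held no called gene. Of 16 other cytosolic and kappa transferases 10 were tested, with 6 higher and 4 lower means in AKO and a median log2 difference of 0.06. Gsto1, an omega class enzyme with reductase activity, had 129, 136, 142 and 132 TPM in AKO, against 127, 116, 104 and 95.9 TPM in WT. Each AKO mouse was above each WT mouse, the opposite order to Gstm6 and Gstm1, at a log2 difference of 0.29 (95% interval 0.07 to 0.50; FDR 0.831). Hpgds, the prostaglandin D synthase of haematopoietic cells, had 47.4, 27.9, 64.4 and 24.3 TPM in AKO, against 20.9, 47.8, 5.14 and 17.7 TPM in WT, and was highest in the 3 mice with the lowest adipocyte scores. Gstz1, the zeta class maleylacetoacetate isomerase, had 704 ± 134 TPM in AKO and 916 ± 261 TPM in WT, and the kappa class gene Gstk1 had 54.8 ± 9.41 TPM in AKO and 63.9 ± 15.2 TPM in WT (SD, n = 4 each). The groups of these last 3 genes overlapped.

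The 6 membrane-bound transferases and relatives (the MAPEG family) were all tested, with a median of -0.10. Mgst1, a microsomal transferase, was as abundant as Gstm1, with 1114 ± 131 TPM in AKO and 1219 ± 199.9 TPM in WT. Mgst2 had 41.7 ± 9.44 TPM in AKO and 31.1 ± 2.92 TPM in WT. Ltc4s, the leukotriene C4 synthase gene, had 434 ± 53.3 TPM in AKO and 495.5 ± 88.2 TPM in WT, and Ptges, a prostaglandin E synthase gene, had 17.0 ± 7.62 TPM in AKO and 20.4 ± 6.20 TPM in WT. These 4 genes overlapped between the groups (SD, n = 4 each).

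Glutathione supply and turnover had 16 tested genes and a median of 0.05. Gsr, the reductase that regenerates glutathione, had 22.8 ± 1.42 TPM in AKO and 26.7 ± 2.77 TPM in WT. Chac1, which degrades glutathione, had 10.2 ± 2.17 TPM in AKO and 6.68 ± 3.06 TPM in WT, and its relative Chac2 had 5.81 ± 0.530 TPM in AKO and 7.03 ± 0.896 TPM in WT. Lap3, an aminopeptidase gene, had 58.8 ± 7.73 TPM in AKO and 70.3 ± 7.88 TPM in WT (SD, n = 4 each). None of the 4 separated the groups. Peroxidases, glutaredoxins and other users of glutathione (14 tested) had a median of -0.08, with Prdx6, a peroxiredoxin that draws on glutathione and GSTP1, at 256 ± 39.1 TPM in AKO and 326 ± 55.0 TPM in WT. The glutaredoxin gene Glrx2 had 30.1 ± 2.66 TPM in AKO and 34.9 ± 3.93 TPM in WT, the glyoxalase gene Hagh 67.7 ± 9.31 TPM in AKO and 81.3 ± 12.6 TPM in WT, and the esterase gene Esd 298 ± 48.3 TPM in AKO and 250.5 ± 55.9 TPM in WT (SD, n = 4 each). Conjugate export had 5 tested genes, a median of -0.04 and log2 differences of -0.11 for Abcc4, 0.17 for Abcc5, -0.08 for Abcc1 and -0.04 for Abcc3, all of them efflux pumps of the ABCC family. Lipid aldehyde clearance had 13 tested genes and a median of -0.007, with Aldh1a1, an aldehyde dehydrogenase, at 131 ± 20.1 TPM in AKO and 168 ± 18.6 TPM in WT (SD, n = 4 each). The carbonyl reductase gene Cbr3 and the aldo-keto reductase genes Akr1b8 and Akr1a1 had log2 differences of 0.42, 0.52 and 0.24, and in each the 95% interval included 0.

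NRF2 regulators and targets had 12 of 16 tested genes with a positive difference and a median of 0.11, where 7621 of all 14172 genes were positive. The list mixes targets with regulators, among them a repressor, so the count has no single direction. Txn1, the cytosolic thioredoxin, had 253 ± 35.1 TPM in AKO and 199.8 ± 34.9 TPM in WT. Hmox1, haem oxygenase, had 172, 141, 224 and 126 TPM in AKO, against 99.7, 206, 68.7 and 109 TPM in WT, and Bach1, the repressor of that gene, had 18.2 ± 2.80 TPM in AKO and 14.5 ± 3.36 TPM in WT (SD, n = 4 each). Ftl1, the ferritin light chain gene, had 7189 to 10796 TPM in AKO and 4440 to 10114 TPM in WT. Hmox1 was again high in the 3 mice with low adipocyte scores, of which 1 is WT. In all 7 lists, 0 genes passed an FDR of 0.05 in limma and the lowest FDR was 0.831. An unadjusted p below 0.05 was found for 1 gene among the other transferases, 1 among MAPEG, 2 in supply and 1 among peroxidases. The same held for 0 in export, 1 in aldehyde clearance and 1 among NRF2 genes, and for 4.75% of all genes.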

How the data were processed

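RNA of 8 fat pads was measured with 1 library per mouse. The authors deposited TPM values with 1 row per transcript, and the tables keep no counts, so the depth is unknown. Per the submitters' processing notes, the names given are HISAT2, DESeq2 and mm9 (a mouse build), with no role or version. The quantifier, strand setting and annotation were not given in the sources used here. Rows were summed per gene identifier, and 55141 of 55487 identifiers had a symbol. limma 3.58.1 (R 4.3.3) with a mean-variance trend was fitted to log2(TPM + 1) of all 14172 genes, and separately of all 33323 rows, with at least 1 TPM in at least 4 libraries. P-values were adjusted over all genes or all rows by Benjamini-Hochberg, with a threshold of 0.05, and the fit was tested on simulated data. Differences are AKO minus WT. Symbols were taken from the gene name table, gene order and transcripts from GENCODE M21 (another build, so no coordinates from it are given), and promoters from RefSeq.

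All members are named, as is every member row with groups apart and a mean of at least 1 TPM. Of each list, up to 4 genes with the smallest p and, for Gstm6, Gstm1 and Gsta4, the 3 most alike genes are named, except 1 neighbour on chromosome 3 that is not reported here. Members, lists and rules were chosen with earlier results of these data known. Alternatives were another pseudocount, no filter, median-ratio scaling, a robust spread, the highest row per gene, and leaving out each mouse. Protein sequences were not used here.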

Additional observations from a re-analysis of the deposited data

Results flagged for a closer look

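In 2 of 32 groups of 4 mice examined, 1 mouse stood farther from the rest than Dixon's critical value (95% level) allows, and both times it was WT mouse 3, which also has a low adipocyte score. Gstm5 was 55.7 TPM in this mouse, against 44.9 to 46.5 TPM in the other WT mice. Gstm7 was 24.5 TPM in it, against 7.40 to 10.3 TPM in the other WT mice. Chance flags about 5% of such groups. In the same library, row 6 of Gstm5 and row 4 of Gstm7 had their highest values of the 8 mice, 16.1 and 7.21 TPM. Without row 6, Gstm5 was 39.6 TPM in WT mouse 3, within the 38.8 to 44.95 TPM of the other WT mice. Without row 4, Gstm7 was 17.3 TPM in WT mouse 3, against 6.08 to 9.54 TPM in the other WT mice.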

How the results depend on the processing

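Of the 10 members, Gstm1, Gstm2, Gstm4, Gstm6, Gstm7, Gsta3, Gsta4 and Gstp1 kept a negative difference in all 13 alternatives, though not its size: leaving out 1 mouse gave -0.94 to -0.41 for Gstm7, -0.64 to -0.11 for Gsta3, -0.57 to -0.04 for Gsta4, -0.28 to -0.10 for Gstm2, -0.34 to -0.12 for Gstm4 and -0.29 to -0.12 for Gstp1. Gstm3 kept its sign in 12 (lowest -0.08) and Gstm5 in 8 (-0.29 to 0.18). Gstm6 lay between -1.79 and -1.47, and its FDR between 0.00594 and 0.0595, above 0.05 only without AKO mouse 3. No other member passed in any alternative. Genes called were 3 higher and 1 lower in AKO. With a pseudocount of 0.1 they were 5 higher, and leaving out 1 mouse gave 1 to 3 higher and 0 to 2 lower. Rows called were 5 higher and 2 lower. They were 2 and 0 with a pseudocount of 0.1, 0 and 0 with no filter, 2 and 1 with a robust spread, and 0 to 2 and 0 to 1 on leaving out 1 mouse. The cause was not tested. Median-ratio scaling left the median of all genes at 0.0042. Slc16a1 moved to 2.24 with its highest row, and row 3 of Gstm1 to -1.09 with a pseudocount of 0.1. No paired analysis was possible because the groups share only replicate number 3, on different animals. TPM keeps no depth, so members under about 10 TPM carry an unknown counting error.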
